A study of Mus musculus with 50 samples.

Results

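Kidney RNA of old mice was compared with kidney RNA of young mice. The 8 libraries were chosen by their labels, the 4 old and the 4 young untreated kidney mRNA libraries, out of 38 RNA-seq libraries and 50 samples in all. The other samples were liver, cultured fibroblasts, kidney and liver of DMSO- or 3C-treated mice, and ATAC-seq libraries of kidney and liver. Both groups were C57BL/6 mice with no treatment and no engineered allele, and the methods name them as female. The young mice were 2.5 months of age by the labels, where the methods give a range around that age, and the old mice 23 to 25 months. Kidney samples were frozen and total RNA was extracted with TRIzol. The methods do not say which part of the kidney was taken. Each library is therefore a mix of nephron segments, vessels, stroma and immune cells in unknown shares. The labels do not say that the 4 replicates of a group were separate animals, so p-values measure the spread between these libraries.

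The kidney filters blood in the glomerulus, whose filter is built by podocytes. The proximal tubule then takes back glucose, amino acids, phosphate and protein and makes new glucose, the thick ascending limb and the distal segments reclaim salt and divalent ions, and the collecting duct sets water and acid excretion. A healthy kidney also holds resident macrophages and dendritic cells and few lymphocytes. Ageing kidneys of mice and humans are known for scarring, fewer working nephrons and collections of lymphocytes.

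Levels are given in CPM, the count of a gene as a share of its library's total after TMM scaling, which corrects for differences in library composition, and a gene was called higher or lower at an edgeR quasi-likelihood adjusted p under 0.05 with a fold change above 2 or below 0.5. Of 14495 genes tested, 823 were higher in old kidney, which is 5.68%, and 59 were lower, which is 0.407%. By the adjusted p alone, 1182 genes (8.15%) were higher and 487 (3.36%) were lower. The median log2 fold change of all genes tested was 0.02. Genes known for a nephron segment, a vessel or stromal cell or an immune cell were grouped into lists, which are described in turn.

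**Figure D1:**
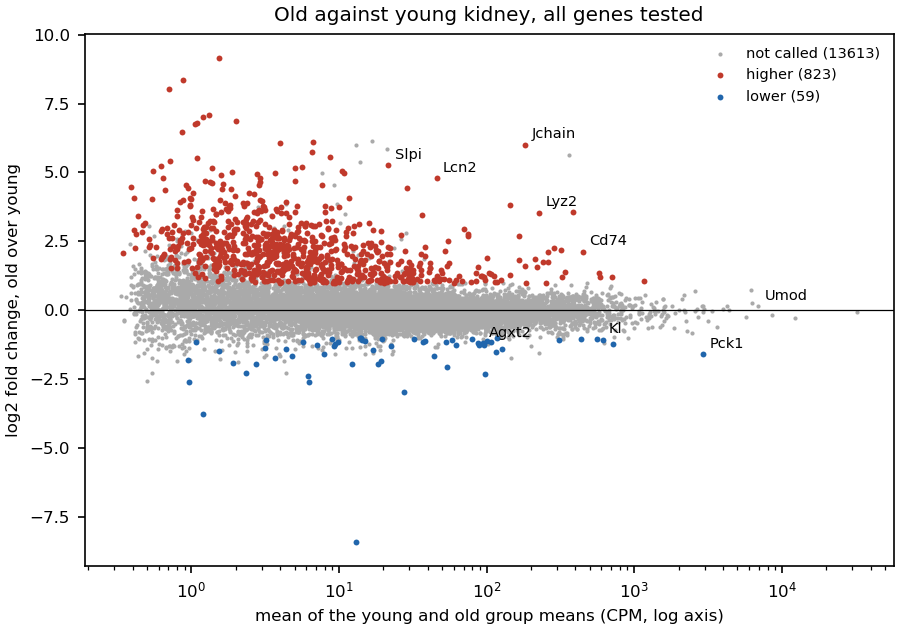
Log2 fold change of old over young kidney (vertical axis) against the mean of the 2 group means in CPM (horizontal log axis) for all genes tested, with called genes in color. The 823 higher genes outnumber the 59 lower genes, with Jchain and Slpi far above 0 and Pck1 the most abundant lower gene; fitted values of genes without counts in a group depend on the prior count.

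The libraries differed in depth and content. The total count was 14.2 to 21.9 M reads in young and 20.3 to 43.7 M in old kidney, and the defining markers of kidney tubule were high in all 8, with Umod at 6219 CPM or more and Slc34a1 at 2412 CPM or more. Alb, the main liver plasma protein, was at 10.2 to 16.1 CPM in young kidney and at 19.5, 2761, 47.6 and 14.8 CPM in old replicates 1 to 4, so old replicate 2 stood apart. The summed fat list, which holds genes of white and brown fat, was at 502 to 995 CPM in young kidney and at 361, 196, 1074 and 194 CPM in old replicates 1 to 4. The level of long transcripts relative to short ones, on a log2 scale around the mean library, was 0.80, 0.65, 0.29 and -0.30 in young and -0.69, 0.40, -1.0 and -0.15 in old kidney, so old replicates 1, 3 and 4 lay below young replicates 1 to 3. The part of liver RNA, fat and transcript length in the results was not tested beyond the values given.

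**Figure D2:**
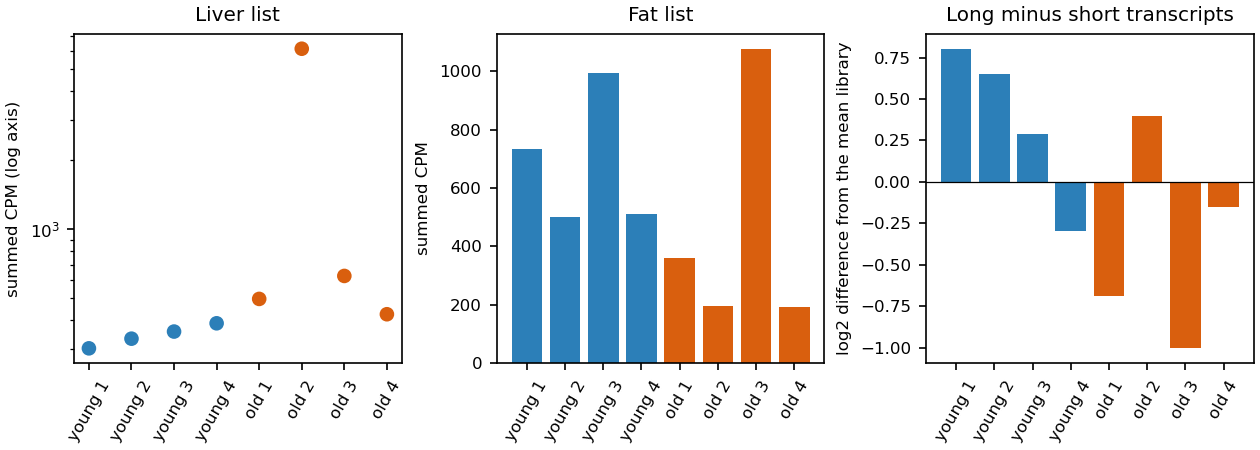
Summed CPM of the liver list (left, log axis), summed CPM of the fat list (middle) and the log2 difference of long minus short transcripts (right) in each of the 8 libraries, young in blue and old in orange. Old replicate 2 holds 6149 CPM of liver transcripts against 302 to 625 CPM in the other libraries, and old replicate 3 has the highest fat list sum, 1074 CPM.

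Without old replicate 2, 857 of 14519 genes (5.9%) were higher and 337 (2.32%) were lower. Of the 823 higher genes 787 were called again, and so were 57 of the 59 lower genes. The 337 genes had a median transcript length of 6981 bases, against 3311 bases for all genes tested, 3529 for the 59 lower genes and 2546 for the 823 higher genes. With a trend over transcript length and GC content taken out of each library and old replicate 2 left out, 164 genes were lower and 772 were higher. The count of lower genes also moved with other libraries, to 34 without old replicate 4, 35 without young replicate 2 and 115 without young replicate 4. Without both old replicates 2 and 3, 766 genes (5.2%) were higher and 150 (1.02%) were lower.

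The summed level of each list in each library shows which lists separated the groups. Sums of the immune lists were higher in every old library than in every young one for 10 of 11 lists, the exception being the mast cell and basophil list with 1 gene tested. Sums of the proximal tubule uptake and intercalated cell lists were lower in every old library. In bulk tissue, fewer cells of a type and less RNA per cell cannot be told apart.

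**Figure D3:**
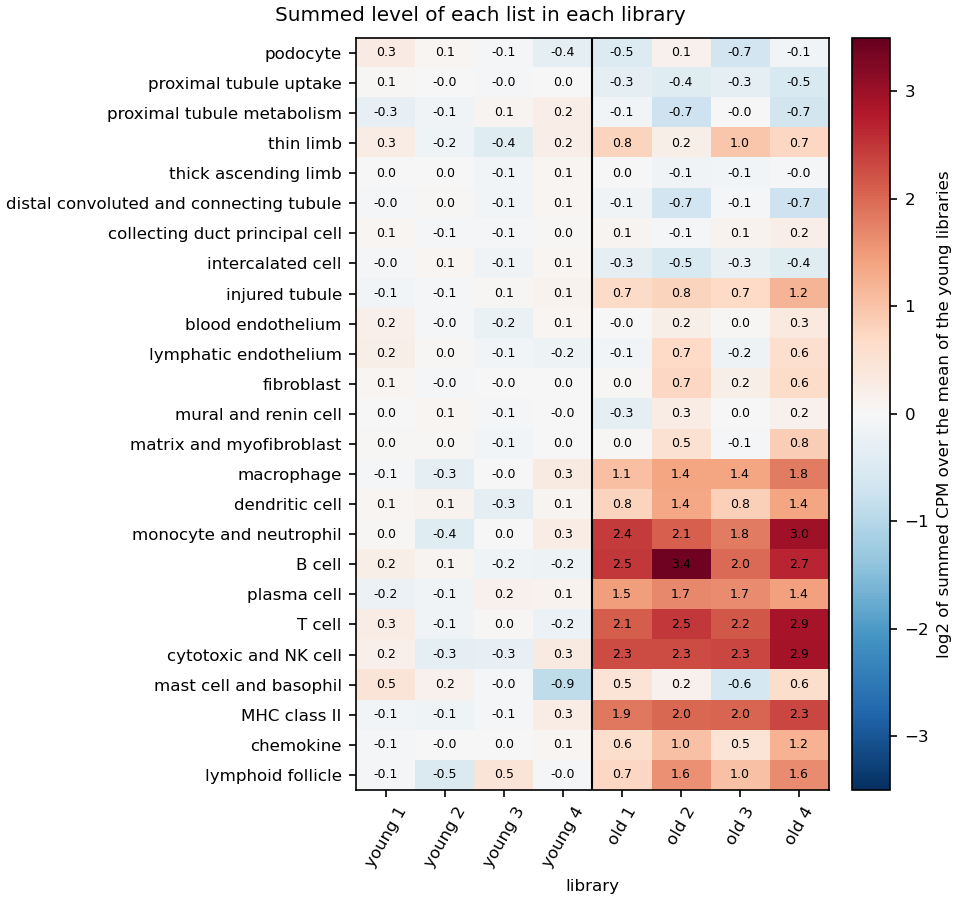
Log2 of the summed CPM of each gene list in each library over the mean of the 4 young libraries (color and printed value), with young libraries left and old libraries right of the line. The immune lists other than mast cell and basophil are raised in all 4 old libraries, and the podocyte, endothelial and mural lists are not separated by age.

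In the nephron lists, 172 of 175 genes were tested, of which 9 were lower and 4 were higher (5.23% and 2.33%, against 0.407% and 5.68% of all genes). By the adjusted p alone, 34 were lower and 9 higher, which is 19.8% and 5.23% against 3.36% and 8.15% of all genes. The median log2 fold change over the nephron genes was -0.23, beside 0.02 for all genes. Without old replicate 2 the lower genes were 17 and the higher genes 5, which is 9.88% and 2.91% against 2.32% and 5.9% of all genes in that fit, and without the length and GC trend they were 5 and 2, against 0.407% and 5.65% of all genes in that fit. The higher genes were 2 without old replicate 4, 1 without young replicate 2 and 2 without young replicate 3.

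None of the 14 podocyte genes passed both thresholds, and their median was -0.11. The groups did not overlap for Cdkn1c, a cell cycle inhibitor of mature podocytes chosen after its values were seen, at 40.9 to 50.6 CPM in young and 72.4 to 109.8 CPM in old kidney (log2 fold change 0.94 ± 0.15, adjusted p 0.00451). Without old replicate 2, 2 of them were lower, when 2.32% of all genes were. Nphs1, which encodes nephrin of the filtration slit, had a log2 fold change of 0.15 ± 0.16 (SE, n = 4 per group), with an adjusted p of 0.549. Podxl, the sialomucin that coats podocyte foot processes, was at 260 to 406 CPM in young and 194 to 383 CPM in old kidney, with an adjusted p of 0.448. Col4a3, a collagen chain of the mature glomerular basement membrane, was at 450, 367, 356 and 253 CPM in young and 182, 266, 138 and 210 CPM in old kidney. Its groups overlapped, and its log2 fold change of -0.84 ± 0.22 passed the adjusted p of 0.036 but not the fold threshold, which it passed without old replicate 2 (-1.01).

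Most proximal tubule genes had lower values in old kidney, and a few of them fell past both thresholds. In the uptake list, 3 of 39 genes were called lower (0.407% of all genes) and 12 were lower by the adjusted p alone (3.36% of all genes), while none was higher. Of the 39 log2 fold changes 35 were below 0, and the median was -0.32. For 15 of the 39 every old library lay below every young one, against 6.91% of all genes. The list had 6 lower genes without old replicate 2, when 2.32% of all genes were. With the length and GC trend taken out 1 was, when 0.407% of all genes were. The summed list was at 24076 to 25580 CPM in young and 17139 to 19898 CPM in old kidney, without overlap. The metabolism list had 3 lower and 1 higher of 39 genes tested (0.407% and 5.68% of all genes), 9 lower by the adjusted p alone (3.36% of all genes), and a median of -0.29. There were 4 lower without old replicate 2 (2.32% of all genes) and 6 without old replicates 2 and 3 (1.02%). With the length and GC trend taken out 3 were lower (0.407%). The sum of the metabolism list overlapped, at 40169 to 57492 CPM in young and 29348 to 48667 CPM in old kidney.

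Agxt2, on chromosome 15 at 10358532-10410153 of GRCm38, encodes a mitochondrial aminotransferase that breaks down dimethylarginines and β-aminoisobutyrate. Its level was 129, 138, 117 and 141 CPM in the young and 55.5, 59.8, 66.3 and 47.7 CPM in the old libraries, so the groups did not overlap. This was a log2 fold change of -1.20 ± 0.12, a 2.29-fold lower level, with an edgeR adjusted p of 0.000795, and it was the lower gene with the smallest p. Pck1, on chromosome 2 at 173153048-173159273, encodes the cytosolic phosphoenolpyruvate carboxykinase that commits carbon to new glucose. It stood at 3294, 4677, 5353 and 4292 CPM in young kidney and at 1797, 1454, 1390 and 1204 CPM in old kidney. Every old library lay below every young one, and the log2 fold change was -1.59 ± 0.18 (adjusted p 0.00104), or 3.01-fold lower. Both values changed little without old replicate 2, to -1.22 for Agxt2 and -1.59 for Pck1.

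Slc5a8 and Slc5a12 encode the sodium-coupled monocarboxylate transporters that take back lactate along the proximal tubule. Slc5a8 was at 145, 151, 139 and 115 CPM in young and 52.7, 67.9, 68.9 and 61.3 CPM in old kidney (log2 fold change -1.13 ± 0.13, adjusted p 0.00098). Slc5a12 was at 678, 624, 564 and 490 CPM in young and 276, 327, 270 and 272 CPM in old kidney (-1.04 ± 0.13, adjusted p 0.00144). Neither pair of groups overlapped, so both transporters fell to less than 0.5 of their young level. The fold threshold was no longer passed with the length and GC trend taken out, at -0.82 for Slc5a8 and -0.92 for Slc5a12, nor for Slc5a12 without young replicate 1, at -0.97.

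Slc22a30, an organic anion transporter gene, fell from 12.3, 22.8, 25.4 and 17.1 CPM to 4.52, 4.32, 7.10 and 4.15 CPM (log2 fold change -1.95 ± 0.27, adjusted p 0.00201). Slc22a26, of the same family and chromosome, fell from 19.5 to 90.1 CPM in young to 5.63 to 7.36 CPM in old kidney (-2.96 ± 0.41, adjusted p 0.00217). Ugt2b38, a glucuronosyltransferase gene, fell from 101 to 147 CPM to 39.4 to 70.8 CPM (-1.21 ± 0.20, adjusted p 0.00446). These 3 genes have close paralogs that can share reads, so their counts are uncertain.

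Of the defining proximal tubule markers, Slc34a1 was lower by the adjusted p alone and Lrp2 did not pass. Slc34a1, the sodium-phosphate cotransporter that parathyroid hormone removes from the brush border, was at 4629, 4264, 3877 and 4753 CPM in young and 2928, 2869, 3272 and 2412 CPM in old kidney. The groups did not overlap, and the log2 fold change of -0.61 ± 0.13 passed the adjusted p (0.0161) but not the fold threshold. Lrp2, which encodes the endocytic receptor megalin and has a long transcript, was at 4368, 3338, 2872 and 2038 CPM in young and 1631, 2511, 1368 and 1534 CPM in old kidney. Its groups overlapped (log2 fold change -0.84 ± 0.25, adjusted p 0.0603), and with the length and GC trend taken out the difference was -0.24. Lrp2 passed both thresholds without old replicate 2, at -1.06 (adjusted p 0.0134). Other genes of the uptake list, chosen after their values were seen, overlapped with smaller differences, among them the water channel gene Aqp1 at -0.04 (adjusted p 0.79), the amino acid transporter gene Slc3a1 at 0.04 (0.818) and the organic anion transporter gene Slc22a6 at -0.15 (0.515).

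Cyp4b1, a cytochrome P450 that oxidizes xenobiotics and fatty acids, was the exception within the metabolism list. It rose from 116, 84.5, 126 and 130 CPM to 306, 422, 727 and 628 CPM (log2 fold change 2.19 ± 0.27, adjusted p 0.00131). Cyp2d12, another cytochrome P450 gene and outside the lists, rose from 37.9, 48.7, 40.9 and 50.2 CPM to 333, 224, 362 and 239 CPM (2.70 ± 0.19, adjusted p 0.000173), with the reservation that Cyp2d genes are close paralogs. Both rose in all 4 old libraries.

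Of 8 thin limb genes tested 1 was higher, against 5.68% of all genes, and 2 were higher by the adjusted p alone. All 8 log2 fold changes were above 0, the median was 0.44, and there were 2 higher genes without old replicate 2, when 5.9% of all genes were higher, and none with the length and GC trend taken out. The called gene was Cryab, a small heat shock protein of the inner medulla whose exons overlap Hspb2, at 130 to 204 CPM in young and 208 to 444 CPM in old kidney (log2 fold change 1.0 ± 0.25, adjusted p 0.0274). That call sits at the fold threshold and was lost in 10 of 18 alternative settings, among them every leave-one-out fit except those without old replicate 2, young replicate 1 and young replicate 4. None of the 16 thick ascending limb genes tested was called, and their median was 0.16. Umod, which encodes uromodulin, was at 6219 to 7144 CPM in young and 6787 to 7784 CPM in old kidney, with an adjusted p of 0.35. Egf, the growth factor that these cells release into urine, was at 3058, 2962, 2602 and 2847 CPM in young and 1867, 1828, 1397 and 1634 CPM in old kidney. Its groups did not overlap, and the log2 fold change of -0.77 ± 0.13 passed the adjusted p (0.00483) but not the fold threshold.

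In the distal convoluted and connecting tubule, 2 of 18 genes were lower (0.407% of all genes) and none was higher, with a median of -0.32. Without old replicate 2, 4 were lower, when 2.32% of all genes were, and with the length and GC trend taken out none was. Kl encodes klotho, the co-receptor for the phosphate hormone FGF23, and lies on chromosome 5 at 150952607-150993817. Its level was 937, 939, 741 and 692 CPM in young and 383, 498, 361 and 333 CPM in old kidney, without overlap (log2 fold change -1.07 ± 0.16, adjusted p 0.00322). Calb1, the calcium-buffering protein calbindin, was at 693, 939, 692 and 690 CPM in young and 489, 354, 378 and 239 CPM in old kidney, again without overlap (-1.05 ± 0.21, adjusted p 0.0109). Both lie close to the fold threshold. Without old replicate 4 Kl was at -1.0, just short of the threshold, and Calb1 at -0.89, without young replicate 2 Calb1 was at -0.92, and with the length and GC trend taken out they were at -0.79 and -0.85. Slc12a3, the thiazide-sensitive cotransporter that defines the distal convoluted tubule, had a log2 fold change of 0.10 ± 0.14 (adjusted p 0.648).

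Of 19 collecting duct principal cell genes 2 were higher and none was lower, when 5.68% of all genes were higher, and the median was 0.03. Krt18, a keratin of simple epithelia, rose from 35.5, 21.8, 34.5 and 28.6 CPM to 57.4, 55.2, 84.2 and 66.8 CPM (log2 fold change 1.13 ± 0.19, adjusted p 0.00465). Stc1, the hormone stanniocalcin 1, rose from 4.13 to 6.02 CPM to 8.68 to 16.1 CPM (1.06 ± 0.23, adjusted p 0.0179). Both calls depended on single libraries: Krt18 was at 0.99 without old replicate 3 and 1.0 without young replicate 2, and Stc1 at 0.81 without old replicate 4 and 0.96 without young replicate 4. Stc1 also missed the adjusted p without young replicate 2 (0.0526) and without young replicate 3 (0.058). With the length and GC trend taken out Krt18 was at 0.79 and Stc1 at 1.25. In that fit 1 gene of the list was higher, when 5.65% of all genes were.

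Intercalated cells secrete acid or base, and 16 of their 19 genes had log2 fold changes below 0, with a median of -0.36. Of the 19, 1 was called lower, against 0.407% of all genes, and 7 were lower by the adjusted p alone, against 3.36% of all genes. The called gene was Hmx2, a homeobox transcription factor gene, at 14.8, 14.7, 11.2 and 14 CPM in young and 8.93, 5.82, 4.97 and 5.01 CPM in old kidney (-1.15 ± 0.22, adjusted p 0.00883). Without old replicates 2 and 3 Hmx2 was at -0.99 and no gene of the list was called. By the adjusted p alone 3 were lower in that fit and 11 with the length and GC trend taken out. The shares of all genes at that threshold were not computed for these fits. The summed list was at 1548 to 1760 CPM in young and 1149 to 1395 CPM in old kidney, without overlap. Atp6v1g3, a proton pump subunit of these cells, was at 67.9 to 99.9 CPM in young and 54.9 to 98.7 CPM in old kidney (adjusted p 0.733).

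Among the 59 lower genes outside the lists, Clic6, a chloride intracellular channel gene, fell from 9.91, 7.55, 13.9 and 11.6 CPM to 2.13, 0.733, 2.46 and 1.79 CPM (log2 fold change -2.59 ± 0.35, adjusted p 0.00198). Mogat2, an acyltransferase that makes diacylglycerol, fell from 18.8 to 37.9 CPM to 5.55 to 11.7 CPM (-1.94 ± 0.28, adjusted p 0.00253). Corin, the protease that activates atrial natriuretic peptide, fell from 7.02 to 14.9 CPM to 3.26 to 4.40 CPM (-1.58 ± 0.24, adjusted p 0.00336). None of these 3 genes overlapped between the groups.

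Of 30 genes known from injured tubules, 14 were higher and none lower (background 5.68% higher), the median log2 fold change was 1.25, and 19 had every old library above every young one, against 10.9% of all genes. The summed list was at 3149 to 3670 CPM in young and 5434, 5793, 5511 and 7668 CPM in old replicates 1 to 4. Some of these genes, among them Vim, Vcam1, C3 and Ccl2, are also expressed by stromal or immune cells, so the list does not mark tubule cells alone.

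Slpi encodes a secreted inhibitor of leukocyte proteases and lies on chromosome 2 at 164354070-164389095. Its level was 0.852, 1.62, 0.716 and 1.08 CPM in young and 50.4, 38.4, 38.2 and 42.0 CPM in old kidney. Old libraries were far above young ones with little spread, a 38.5-fold higher level (log2 fold change 5.27 ± 0.24, adjusted p 6.33e-06). Lcn2, the iron-carrier protein NGAL that damaged distal tubules release, was at 1.76, 2.97, 5.23 and 3.05 CPM in young and 32.4, 66.1, 75.8 and 180 CPM in old kidney. It rose in all 4 old libraries, though these differed among themselves more than for Slpi (4.79 ± 0.55, adjusted p 0.00112). Vim, the intermediate filament vimentin, rose from 54.9 to 64.1 CPM to 119 to 189 CPM (1.36 ± 0.15, adjusted p 0.000938).

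Further genes of the injury list are given here because of what they mark and were chosen after their values were seen. Havcr1, which encodes the proximal tubule injury marker KIM-1, rose from 1.6, 1.57, 2.94 and 1.74 CPM to 8.78, 11, 11.2 and 28.5 CPM (log2 fold change 2.94 ± 0.41, adjusted p 0.00229). Vcam1, an adhesion molecule of tubule cells that fail to recover, rose from 15.4 to 17.5 CPM to 28.4, 72.8, 28.8 and 88.0 CPM (1.72 ± 0.36, adjusted p 0.0134). Cdkn1a, the cell cycle inhibitor p21, rose from 18.2 to 23.7 CPM to 40.7 to 54.7 CPM (1.12 ± 0.14, adjusted p 0.00126). In each of the 3 the groups were apart, and Havcr1 and Vcam1 varied most among the old libraries.

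**Figure D4:**
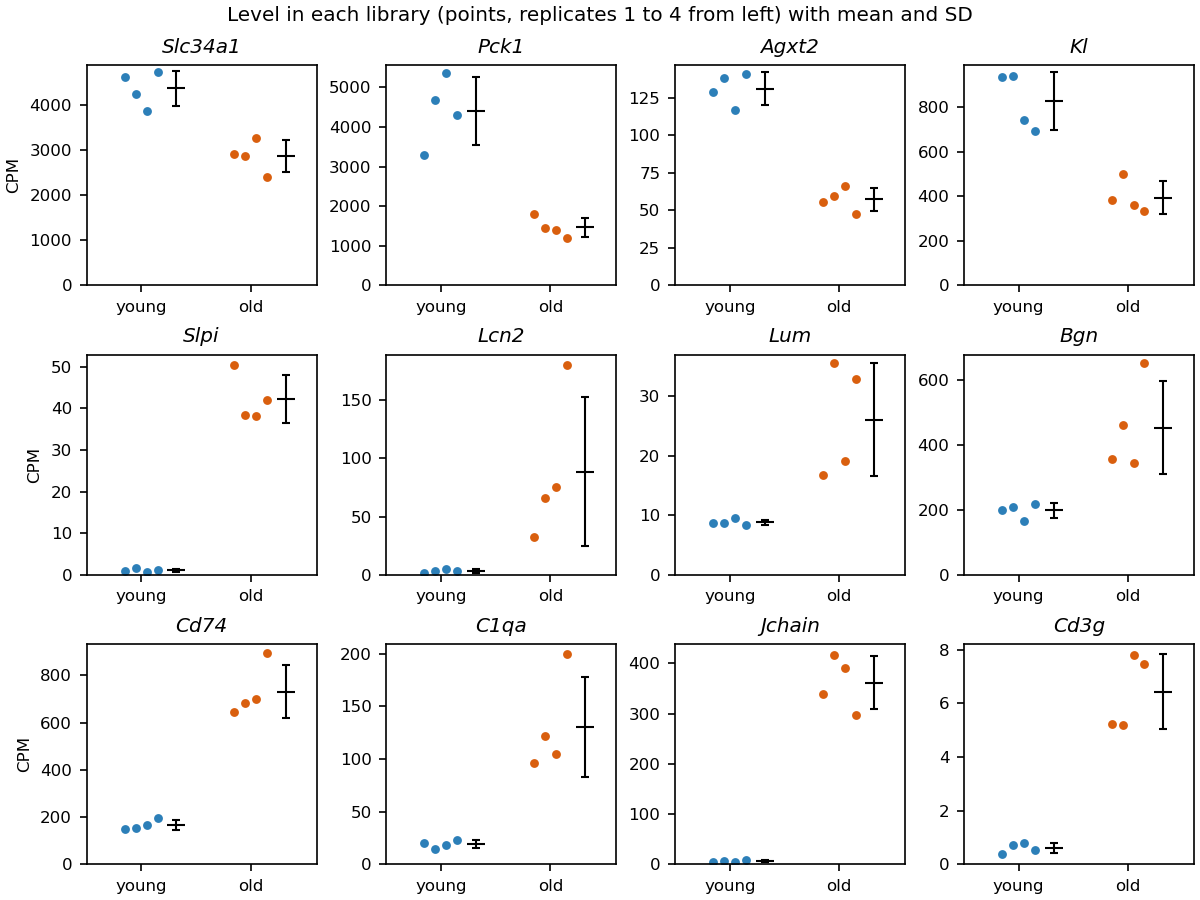
CPM of 12 genes in each library (points, replicates 1 to 4 from left within a group) with the mean and SD (black), young in blue and old in orange. Slc34a1, Pck1, Agxt2 and Kl are lower in every old library, and the other 8 genes are higher in every old library.

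In the vessel and stroma lists, 94 of 98 genes were tested, of which 9 were higher (9.57%, against 5.68% of all genes) and none was lower (0.407% of all genes). By the adjusted p alone, 17 were higher and 2 lower, which is 18.1% and 2.13% against 8.15% and 3.36% of all genes, and the median was 0.23. Without old replicate 4, 5 were higher, when 3.95% of all genes were. Blood endothelium had no called gene among 23 and a median of 0.13. Pecam1 and Cdh5, junction proteins of all endothelium, had log2 fold changes of 0.13 ± 0.14 and 0.03 ± 0.18 (adjusted p 0.553 and 0.913). Plvap, of fenestrated capillaries, was at 144 to 234 CPM in young and 182 to 246 CPM in old kidney (adjusted p 0.233), and Eng, a co-receptor for TGF-β, had a log2 fold change of 0.52 ± 0.14 and an adjusted p of 0.034 without passing the fold threshold. Lymphatic genes gave no call among 6 tested, with a median of 0.23 that was -0.02 without old replicate 2. Pdpn, which lymphatic endothelium shares with podocytes and fibroblastic cells, was at 9.58 to 11.2 CPM in young and 15.4 to 28.0 CPM in old kidney (0.99 ± 0.19, adjusted p 0.0107), just under the fold threshold. Flt4, the lymphatic growth factor receptor, had a log2 fold change of -0.12 ± 0.27.

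Of 19 fibroblast genes 5 were higher, against 5.68% of all genes, none was lower, and the median was 0.49. Lum, the collagen-binding proteoglycan lumican, rose from 8.68, 8.68, 9.45 and 8.32 CPM to 16.8, 35.5, 19.1 and 32.9 CPM (log2 fold change 1.57 ± 0.25, adjusted p 0.00367). Mfap4, an elastic fiber protein, rose from 2.50 to 4.85 CPM to 7.87 to 17.0 CPM (1.93 ± 0.29, adjusted p 0.00294). Fbln1, a basement membrane and elastic fiber protein, rose from 12 to 15 CPM to 24.6 to 44.8 CPM (1.36 ± 0.21, adjusted p 0.00322). Old replicates 2 and 4 were the highest for all 3 genes. The defining fibroblast markers Pdgfra and Dcn overlapped between the groups, with log2 fold changes of 0.24 ± 0.27 and 0.60 ± 0.21 (adjusted p 0.579 and 0.0985), and they too were highest in old replicates 2 and 4.

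Of 30 matrix and myofibroblast genes 4 were higher, against 5.68% of all genes, and none lower, and the median was 0.31. Bgn, the proteoglycan biglycan, rose from 199, 208, 167 and 219 CPM to 355, 462, 345 and 654 CPM (log2 fold change 1.20 ± 0.20, adjusted p 0.00545), and without old replicate 4 it was at 0.97. Mmp7, a protease that injured tubules secrete, was near absent in young kidney at 0, 0, 0.43 and 0.0599 CPM and stood at 1.02, 2.47, 1.66 and 5.42 CPM in old kidney (4.63 ± 0.95, adjusted p 0.013). Tgfb1, the fibrosis cytokine, rose from 13.1 to 14.1 CPM to 21.2 to 37.8 CPM (1.0 ± 0.18, adjusted p 0.00729). Its call sits at the fold threshold and was lost in 9 of 18 alternatives, among them the fits without old replicate 4 (0.80), young replicate 1 (0.98) and young replicate 3 (0.97). The fibrillar collagen genes Col1a1 and Col3a1, chosen after their values were seen because they make up scar tissue, had log2 fold changes of 0.42 ± 0.28 and 0.33 ± 0.28 (adjusted p 0.325 and 0.455).

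Smooth muscle, pericyte and renin cell genes gave no call among 16 tested, with a median of -0.15. Mylk, the myosin kinase of smooth muscle, was at 92.5 to 133 CPM in young and 62.0 to 134 CPM in old kidney (adjusted p 0.393). Tagln, an actin-binding protein of smooth muscle whose exons overlap Pcsk7, was at 60.2 to 94.8 CPM in young and 88.6 to 133 CPM in old kidney (adjusted p 0.0652). Ren1, which encodes renin, was listed at 0 counts in all 8 libraries, as were Akr1b3 and Ccl21a of other lists, so no level can be read for them.

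**Figure D5:**
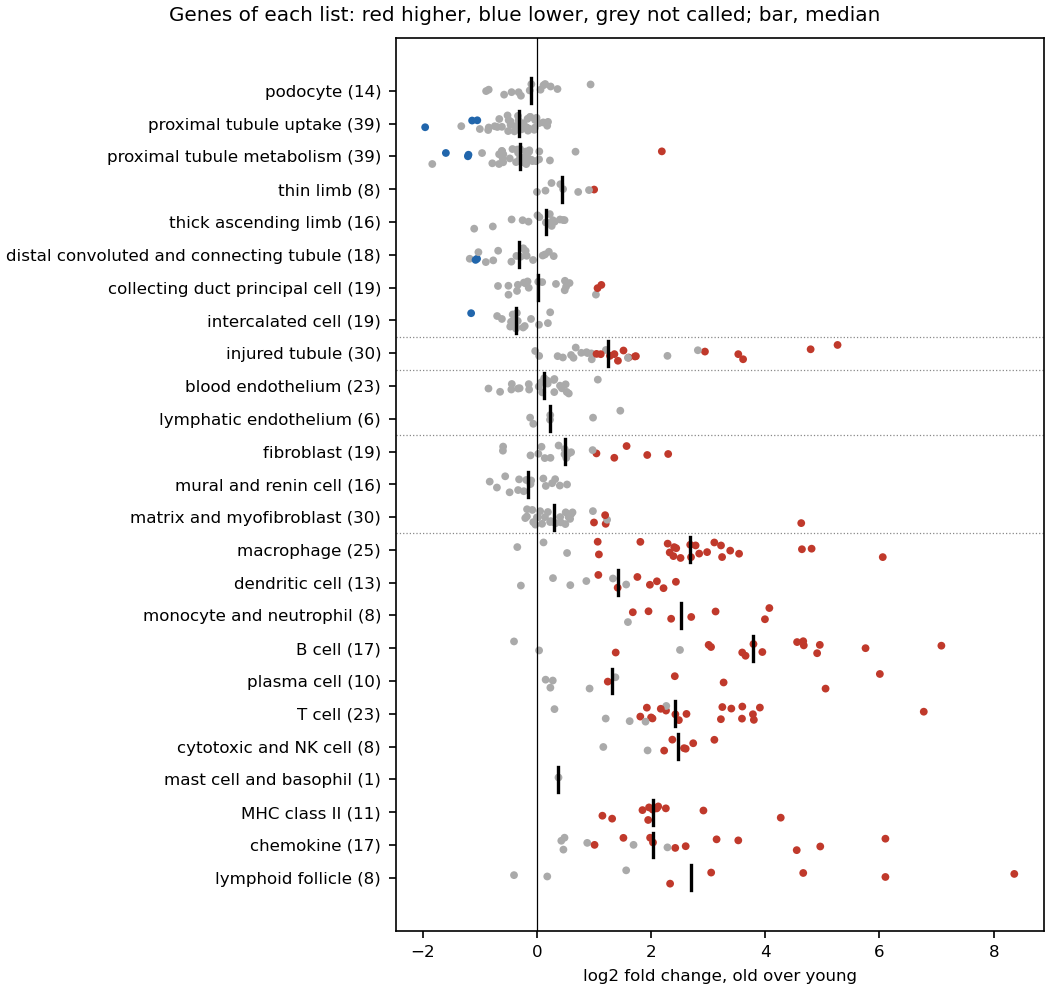
Log2 fold change of old over young kidney for each tested gene of each list, with the number tested in parentheses, called genes in red (higher) or blue (lower) and the list median as a black bar. Nephron list medians run from -0.36 to 0.44 (thin limb), the injured tubule list has a median of 1.25, and the immune lists other than mast cell and basophil have medians from 1.31 to 3.79.

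Of the nephron, the vessel and stroma and the immune lists, the immune lists had the most called genes. Of 189 genes in the immune lists, 179 were in the count tables and 136 were tested, of which 103 were higher (75.7%, against 5.68% of all genes) and none was lower. The median log2 fold change was 2.34. Since many of these genes have few counts in young kidney, a gene of this kind could pass the count filter through its old libraries alone, and the 43 genes in the tables that were not tested did not pass it, among them Ccl21a, which is listed at 0 throughout. Leaving out any single library gave 86 to 103 higher genes. Without old replicate 2 there were 103, of which 102 were among the 134 genes of the 136 that were still tested.

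Of 25 macrophage genes tested 22 were higher, against 5.68% of all genes. The median was 2.69, and the sum was at 847 to 1310 CPM in young and 2169 to 3695 CPM in old kidney. Lyz2, the lysozyme of myeloid cells, was at 36.5, 29.4, 44.5 and 32.8 CPM in young and 329, 327, 299 and 710 CPM in old kidney (log2 fold change 3.54 ± 0.30, adjusted p 0.0004). Every old library was above every young one, and old replicate 4 was the highest by far. C1qa, a chain of the complement starter C1q that resident macrophages make, rose from 20.5, 14.4, 18.3 and 22.9 CPM to 95.8, 122, 104 and 200 CPM (2.78 ± 0.25, adjusted p 0.000446). Aif1, an actin-binding protein of macrophages, rose from 1.80 to 2.29 CPM to 8.68 to 19.4 CPM (2.70 ± 0.26, adjusted p 0.000594). The defining marker Adgre1, which encodes F4/80, rose by 2.33 ± 0.31 (adjusted p 0.00188), and Csf1r, the receptor these cells need to survive, by 1.09 ± 0.13 (adjusted p 0.00126).

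In the dendritic cell list 7 of 13 tested genes were higher, with a median of 1.42. In the monocyte and neutrophil list 7 of 8 tested genes were higher, with a median of 2.53. Of all genes 5.68% were higher. Clec10a, a lectin of dendritic cells and macrophages, rose from 0.746 to 1.53 CPM to 3.45 to 6.74 CPM (log2 fold change 2.22 ± 0.32, adjusted p 0.00266). Irf8, a transcription factor of the dendritic lineage and B cells, rose from 12.2 to 16.8 CPM to 24.1 to 37.8 CPM (1.08 ± 0.17, adjusted p 0.00441), and it missed the fold threshold without old replicate 4 (1.0) and without young replicate 3 (0.96). Flt3, the growth factor receptor of dendritic cells, rose by 2.44 ± 0.42 (adjusted p 0.00553). Ly6c2, a marker of inflammatory monocytes, rose from 0.716 to 2.22 CPM to 13.9, 22.4, 16.6 and 35.5 CPM (4.07 ± 0.40, adjusted p 0.000608). Ccr2, the receptor that brings monocytes into tissue, rose from 3.28 to 6.07 CPM to 13.1 to 29.0 CPM (1.96 ± 0.30, adjusted p 0.00322), and Plac8 rose by 1.68 ± 0.22 (adjusted p 0.00174). Of the 15 genes of that list 7 were not tested, among them the neutrophil genes Ly6g, Mpo and Elane.

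The MHC class II list was the only one with every gene called: all 11 were higher, against 5.68% of all genes. The median was 2.03, and the sum was at 445 to 590 CPM in young and 1772 to 2474 CPM in old kidney. Class II molecules present peptides to helper T cells on macrophages, dendritic cells and B cells, and also on some tubule cells. With the length and GC trend taken out 9 of the 11 were called, when 5.65% of all genes were higher. Without both old replicates 2 and 3, 10 were, when 5.2% of all genes were higher. Cd74, the invariant chain that escorts class II molecules, was at 151, 154, 166 and 198 CPM in young and 645, 684, 698 and 894 CPM in old kidney (log2 fold change 2.13 ± 0.15, adjusted p 0.000173). H2-Aa rose from 94.4, 83.9, 95.9 and 122 CPM to 353, 435, 519 and 592 CPM (2.26 ± 0.18, adjusted p 0.000376), H2-Ab1 by 1.85 ± 0.14 (adjusted p 0.000248) and H2-Eb1 by 2.10 ± 0.15 (adjusted p 0.000177). H2-DMa, part of the peptide loader of class II and overlapping Brd2 in its exons, rose from 5.80 to 9.76 CPM to 28.5 to 32.9 CPM (1.97 ± 0.16, adjusted p 0.00038). The classical class II genes are similar in sequence, so reads may be split between them. Every old library was above every young one for all 5 of these genes, and replicate 4 was the highest young library.

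Promoters of genes in this list are known for the X and Y boxes, short elements that the regulatory complex around CIITA reads. Ciita itself was at 2.29 to 5.70 CPM in young and 6.86 to 15 CPM in old kidney (log2 fold change 1.32 ± 0.34, adjusted p 0.0323). The 250 bases before the start of genes were taken from RefSeq (GRCm38.p6), for 11383 of the tested genes, and searched on both strands. RefSeq starts can differ from the GENCODE starts used for positions and peaks, and a gene with several RefSeq starts was counted if any of its windows held the core. The X box core, AGCAAC and ATG with 2 bases between them, was in 3 of the 8 class II genes with a window (37.5%) and in 0.202% of all 11383, and the Y box core CTGATTGG in 4 of the 8 (50%) and in 5.89% of all. The AP-1 core TGANTCA was in 66 of 634 higher genes (10.4%), 3 of 42 lower genes (7.14%) and 5.8% of all. The PU.1 core GAGGAAGT was in 44 of the 634 higher genes (6.94%) and 2.95% of all. The Y box core was also in 4.26% of higher and 11.9% of lower genes. A match describes letters and not binding. The windows shown are of 4 class II genes with X or Y box cores, with each core in capitals, 5′ to 3′ on the strand of the gene.
H2-Eb1 (chr17:34305617-34305866, plus strand): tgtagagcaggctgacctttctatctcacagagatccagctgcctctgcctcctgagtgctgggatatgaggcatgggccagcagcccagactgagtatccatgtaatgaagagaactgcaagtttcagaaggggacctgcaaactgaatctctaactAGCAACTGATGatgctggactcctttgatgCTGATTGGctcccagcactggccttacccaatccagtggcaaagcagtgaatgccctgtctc
H2-Aa (chr17:34287824-34288073, minus strand): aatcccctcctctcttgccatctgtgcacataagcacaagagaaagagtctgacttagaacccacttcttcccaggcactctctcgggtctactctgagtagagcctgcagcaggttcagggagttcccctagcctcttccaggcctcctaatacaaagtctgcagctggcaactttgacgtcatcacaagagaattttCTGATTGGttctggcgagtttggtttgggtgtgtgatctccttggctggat
H2-Oa (chr17:34092129-34092378, plus strand): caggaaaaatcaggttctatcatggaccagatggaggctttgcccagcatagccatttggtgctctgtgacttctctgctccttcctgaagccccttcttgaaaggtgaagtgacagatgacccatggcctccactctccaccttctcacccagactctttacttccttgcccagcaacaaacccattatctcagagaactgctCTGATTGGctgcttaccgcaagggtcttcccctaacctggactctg
H2-Ob (chr17:34238655-34238904, plus strand): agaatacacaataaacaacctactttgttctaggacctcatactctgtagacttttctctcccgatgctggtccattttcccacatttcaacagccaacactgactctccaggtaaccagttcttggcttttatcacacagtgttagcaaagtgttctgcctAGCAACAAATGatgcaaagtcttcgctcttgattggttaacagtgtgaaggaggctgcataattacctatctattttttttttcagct

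In H2-Eb1 the X box core begins 92 bases and the Y box core 62 bases before the start, without overlap. The Y box core begins 51 bases before the start in H2-Aa and 46 bases in H2-Oa, and the X box core 88 bases before it in H2-Ob. H2-Ob rose from 1.17 to 2.16 CPM to 4.40 to 6.74 CPM (log2 fold change 1.95 ± 0.27, adjusted p 0.00201), and H2-Oa from 0.0899 to 0.644 CPM to 0.914 to 2.31 CPM (2.03 ± 0.53, adjusted p 0.035). Of the lower genes, Agxt2 has in this window the core CAAAGTCCA, known from HNF4 sites of liver and proximal tubule genes, which 0.466% of all 11383 genes, 8 of the 634 higher genes (1.26%) and 1 of the 42 lower genes (2.38%) have. It is shown because it is the lower gene with the smallest p, and the core begins 21 bases before one of its RefSeq starts.
Agxt2 (chr15:10358283-10358532, plus strand): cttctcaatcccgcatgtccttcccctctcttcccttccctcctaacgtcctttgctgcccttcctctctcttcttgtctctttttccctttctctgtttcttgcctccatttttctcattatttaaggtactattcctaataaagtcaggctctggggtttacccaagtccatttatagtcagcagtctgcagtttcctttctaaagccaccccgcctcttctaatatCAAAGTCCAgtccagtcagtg

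Of 19 B cell genes 17 were tested and 14 were higher, against 5.68% of all genes, with a median of 3.79. Since genes can pass the count filter through their old libraries alone, the immune lists are not ranked by their medians. Cd79a, a signaling chain of the B cell receptor, was at 0.746, 0.584, 0.358 and 0.779 CPM in young and 14, 23.2, 11.6 and 10.3 CPM in old kidney (log2 fold change 4.56 ± 0.35, adjusted p 0.000261). Pou2af1, a coactivator of B cells, rose from 0.107 to 0.450 CPM to 7.82, 19.0, 7.91 and 16.6 CPM (5.76 ± 0.51, adjusted p 0.000446), and Cd37 rose by 3.05 ± 0.28 (adjusted p 0.000446). The defining marker Ms4a1 rose by 4.67 ± 0.83 (adjusted p 0.00678). Old replicate 2 was the highest old library for Cd79a and Ms4a1, and without it their log2 fold changes were 4.25 and 3.66.

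Jchain had the smallest p of all genes. It encodes the chain that joins the subunits of secreted IgA and IgM in plasma cells and lies on chromosome 5 at 88519809-88527891. Its level was 4.10, 5.89, 4.22 and 8.21 CPM in young and 340, 417, 390 and 298 CPM in old kidney, a 64.3-fold higher level (log2 fold change 6.01 ± 0.25, adjusted p 5.75e-06). The old libraries agreed closely with each other, and without old replicate 2 the value was 5.93. Mzb1, a chaperone of antibody assembly, rose from 0.266, 0.405, 0.358 and 1.44 CPM to 16.5, 23.6, 17.9 and 23.6 CPM (5.06 ± 0.44, adjusted p 0.000431). Tnfrsf13b, a receptor of plasma and memory B cells, rose by 3.27 ± 0.50 (adjusted p 0.00342). In all, 5 of the 10 plasma cell genes tested were higher, against 5.68% of all genes, with a median of 1.31. Without old replicates 2 and 3, 3 were higher, when 5.2% of all genes were. Of the 21 genes in the list 10 were immunoglobulin genes that the count tables used here do not hold, and Tnfrsf17 was not tested, at 0 to 0.12 CPM in young and 0.0508 to 0.947 CPM in old kidney.

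Of 27 T cell genes 23 were tested and 18 were higher, against 5.68% of all genes, with a median of 2.43. Cd3g, a chain of the T cell receptor complex, was at 0.373, 0.719, 0.787 and 0.539 CPM in young and 5.23, 5.20, 7.81 and 7.45 CPM in old kidney (log2 fold change 3.41 ± 0.30, adjusted p 0.000446). Pdcd1, the inhibitory receptor PD-1, had 1 count in all young libraries together and 237 counts in the old ones, a ratio of 150.3 after scaling for depth (95% exact interval 26.7 to 5961, counting error only; adjusted p 0.000446). Zap70, the kinase behind the T cell receptor, rose by 3.91 ± 0.43 (adjusted p 0.000979). Cd3e and Cd4 rose by 3.22 ± 0.53 and 1.93 ± 0.35 (adjusted p 0.00451 and 0.0072). Cd8a was at 1.08 to 2.46 CPM in young and 1.27 to 3.24 CPM in old kidney, and it did not pass (0.31 ± 0.37, adjusted p 0.598); whether its fold change differs from that of Cd4 was not tested. In the cytotoxic and NK cell list 8 of 14 genes were tested and 6 were higher, against 5.68% of all genes, with a median of 2.48. They were led by Ccl5 (2.61 ± 0.37, adjusted p 0.00229), Ctsw (2.74 ± 0.40, adjusted p 0.00274) and Klrd1 (3.11 ± 0.54, adjusted p 0.006). Of the mast cell list 1 gene was tested, Ms4a2, at 0.501 to 1.39 CPM in young and 0.426 to 1.86 CPM in old kidney (adjusted p 0.66).

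Of 25 chemokine genes 17 were tested and 11 were higher, against 5.68% of all genes. None was lower, and the median was 2.03. Cxcl13, which draws B cells into follicles, was at 0.0533, 0.135, 0.501 and 0.12 CPM in young and 5.13, 22.4, 7.62 and 17.2 CPM in old kidney (log2 fold change 6.10 ± 0.68, adjusted p 0.000979). The 2 monocyte attractants Ccl8 and Ccl12 rose by 4.96 ± 0.54 and 4.55 ± 0.59 (adjusted p 0.000938 and 0.00168). Old replicates 2 and 4 were the highest for all 3. In the lymphoid follicle list 8 of 16 genes were tested and 5 were higher, against 5.68% of all genes. The median was 2.69, also with Glycam1 set to its bound. Ltb, the lymphotoxin that shapes lymphoid tissue, rose from 0.799 to 2.75 CPM to 9.09 to 14.8 CPM (3.05 ± 0.37, adjusted p 0.00127). Glycam1, a mucin of the venules through which lymphocytes enter lymph nodes, had no count in young kidney and 219 counts in old kidney, at least 46.3-fold higher when 3 counts over the young group are taken as the limit.

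Lists of other tissues and of dividing cells were measured for what the kidneys may have carried with them. Of 16 dividing cell genes 1 was higher, a share near the 5.68% of all genes. This was Pclaf, a clamp-binding protein of DNA replication (log2 fold change 2.11 ± 0.39, adjusted p 0.00836), and the median was 0.68, or 0.51 without old replicate 2. With the length and GC trend taken out 3 of the 16 were higher, when 5.65% of all genes were. In the liver list 4 of 18 tested genes were higher, against 5.68% of all genes, and the median of 2.99 was 0.73 without old replicate 2, when 3 were higher. The list sum was at 302 to 388 CPM in young and 425 to 6149 CPM in old kidney, above every young library in all 4 old ones. Itih3 and F2, plasma proteins made in liver, and Trf, the iron carrier transferrin, were at 31.9, 59.7 and 714 CPM in old replicate 2 and at no more than 3.07, 3.22 and 219 CPM in the other old libraries. Itih3 and F2 were still called without old replicate 2, at 3.17 and 2.97 (adjusted p 0.00659 and 0.0105), and Trf was at 0.82. In the fat list 8 of 9 log2 fold changes were below 0 and the median was -0.58. It was -0.35 without old replicate 2 and -1.54 without old replicates 2 and 3. In that last fit 3 genes of the list were called lower, when 1.02% of all genes were. Lep, the fat hormone leptin, was higher at 2.67 ± 0.70 (adjusted p 0.0373) and lost its call in 7 alternatives. Its groups overlapped, with old replicate 4 at 0.605 CPM and young replicate 4 at 0.958 CPM. Urothelium had no call among 8 genes and a median of 0.20, the red blood cell list none among 2 and a median of -0.16, with Slc4a1 of that list shared with intercalated cells, and the 1 adrenal gene tested, Star, had a log2 fold change of -0.62.

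Open chromatin at the starts of these genes was examined in a separate assay, ATAC-seq, which cuts DNA where it is accessible. It covered 3 young and 3 old kidney libraries, with peaks called in each library on its own. Of 14417 tested genes with a GENCODE start, 81.7% had a peak within 1000 bases of the start in all 6 libraries and 7.16% had none in any. Among 817 higher genes, 20 (2.45%) had a peak in all 3 old and in no young library, against 30 of all genes (0.208%), and 2 (0.245%) had the opposite pattern, against 0.312% of all genes. The 20 genes included Itgam, Mrc1, Ccl12, Clec9a, Fcer1g and Ptprc, all expressed by immune cells. Of 59 lower genes none had a peak in the old libraries alone, and 1 had it in the young libraries alone, Akr1c14, a steroid dehydrogenase gene. The higher genes had a peak in all 6 libraries in 40.1% of cases and the lower genes in 55.9%.

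Pck1, Agxt2, Kl, Slc5a8 and Slc5a12 had a promoter peak in all 6 libraries, and so had Cd74, H2-Aa and H2-Eb1 and 81.7% of all genes. The RNA of these 8 named genes differed with age. Only the presence of a called peak was counted. Peak height was not compared, so a change in accessibility at these starts was not tested. Of the other lower genes named, Corin had a peak in 2 young and no old libraries, Mogat2 in 3 and 1, and Ugt2b38 and Calb1 in 3 and 2, while Clic6, Hmx2, Slc22a26 and Slc22a30 had none in any. Jchain, Cxcl13, Cd3g and Havcr1 had none in any library. Lyz2 had a peak in 1 young and 3 old libraries, and C1qa in no young and 2 old libraries. The young libraries had 115836 to 128395 peaks and the old ones 93072 to 108970. With every library held to an equal number of its strongest peaks, 34 higher genes (4.16%) had a peak in the old libraries alone. The share of all genes rose to 0.368%. A −log10 q of at least 5 left 13 (1.59%, against 0.222% of all genes). Without old ATAC replicate 2 it was 40 (4.9%, against 0.444%) and without young ATAC replicate 2 it was 43 (5.26%, against 0.499%). With 1 ATAC library left out, 2 to 7 higher genes had a peak in the young libraries alone, against 0.486% to 0.694% of all genes. There were 5 and 7 without old ATAC replicates 1 and 3 and 4 without young ATAC replicate 2 or 3. Among the lower genes there were 1 to 3.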

How the data were processed

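RNA-seq of 8 untreated mouse kidney libraries, 4 per age group, was used, and the 3 young and 3 old kidney ATAC-seq libraries for promoter peaks; all other libraries were left out. Per the labels and methods, the count tables deposited by the authors were made by HTSeq 0.12.4, without strand, from alignments by HISAT2 2.2.1 (mm10) of reads cleaned in Trimmomatic 0.39, so reads of overlapping or antisense genes cannot be told apart. Summary lines of the count tables were left out. For ATAC-seq the authors aligned with Bowtie2 2.3.5.1 and deposited MACS2 peaks of each library, with −log10 p and −log10 q values.

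Counts were filtered (edgeR 4.0.16 filterByExpr, minimum count 10), scaled with TMM and tested with the quasi-likelihood F test over all 14495 genes, with Benjamini-Hochberg adjustment and no covariate (R 4.3.3). Total counts were 14.2 to 43.7 M reads, and counting intervals and limits of 3 counts cover counting error only. On simulated data with 14495 genes, 94 of 100 genes changed 4-fold and 83 of 100 changed 2.5-fold were recovered for this comparison, with 6 false calls. The changed genes had means above 1 CPM, and the libraries were simulated without differences in liver RNA or transcript length. These rates therefore do not cover rarer genes or such differences. Gene positions came from GENCODE vM21 (GRCm38), by which 24542 of 24984 gene names were matched, and upstream windows from RefSeq. A promoter peak overlapped the window of 1000 bases on either side of a start by at least 1 base.

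Groups, members and lists were chosen with earlier results of these data known. Genes were named by rule: Jchain, Slpi, Cd74, Pck1 and Agxt2, the 10 genes of smallest p in each direction (leaving out Gm and Rik names), up to 3 called genes per list and direction, or the 2 most abundant where a list had none, and defining cell markers. Other genes named were chosen after their values were seen, among them Havcr1, Vcam1, Cdkn1a, Cdkn1c, Aqp1, Slc3a1, Slc22a6, C3, Ccl2, Col1a1, Col3a1, Ciita, the genes given by name for their promoter peaks and those under other observations. Alternatives were DESeq2 1.42.0, RLE scaling, other filters, no fold threshold, equal depth (14238228 reads), a replicate block, a length and GC spline, each library left out, and, chosen after seeing the data, old replicates 2 and 3 left out together and the spline with old replicate 2 left out.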

Additional observations from a re-analysis of the deposited data

Results flagged for a closer look

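In groups of 4 libraries, a library was singled out where its gap to the nearest other library exceeded the Dixon critical value (95%) as a share of its group's range. Chance gives this in about 1 of 20 groups, so 11.1 of the 222 groups examined, and 22 were found.

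Of the summed lists, 5 had such a library. The injured tubule sum of old replicate 4 was 7667.5 CPM, with the other old libraries at 5434.2 to 5793.4 CPM, and its cytotoxic and NK cell sum was 35.668 CPM, with the others at 23.133 to 24.284 CPM. The liver sum of old replicate 2 was 6148.9 CPM, with the others at 425.1 to 625.03 CPM. The dendritic cell sum of young replicate 3 was low at 33.645 CPM, with the others at 43.778 to 45.4 CPM. The MHC class II sum of young replicate 4 was 590.4 CPM, with the others at 444.88 to 468.46 CPM.

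Single genes gave the other 17. Young replicate 4 was the highest of its group for H2-Eb1 at 124.63 CPM, H2-Ab1 at 108.7 CPM, Mzb1 at 1.4374 CPM and Tnfrsf13b at 1.1978 CPM. Old replicate 4 was the highest for Lyz2 at 710.11 CPM, Plac8 at 54.225 CPM and Stc1 at 16.116 CPM. Old replicate 2 was the highest for the liver genes Itih3 at 31.884 CPM and F2 at 59.682 CPM, for Trf at 714.41 CPM and for Slc5a12 at 326.75 CPM, and the lowest for Ctsw at 2.1205 CPM. Young replicate 2 stood out for Calb1 at 939.42 CPM and for Pdcd1 at 0.044951 CPM, which is its only count in young kidney. Young replicate 3 was the highest for Mmp7 at 0.42952 CPM and the lowest for Slc4a1, an anion exchanger of red blood cells and intercalated cells, at 61.85 CPM, and old replicate 3 was the highest for Slc22a30 at 7.1005 CPM. No library of one group reached the other group's range in H2-Eb1, H2-Ab1, Lyz2, Mzb1, Calb1 or Slc5a12.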

How the results depend on the processing

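No value changed sign among the results past the threshold. The count of higher genes (823) and of higher immune genes (103) stayed within 1.5 times under every alternative. Leaving out 1 library gave 573 to 857 and 86 to 103. Lower genes (59) were 105 with DESeq2, 487 by adjusted p alone, 34 to 337 with 1 library left out, 150 without old replicates 2 and 3, and 164 with the length and GC trend taken out and old replicate 2 left out. Higher nephron genes (4) were 9 by adjusted p alone, 2 with the length and GC trend taken out and 1 to 5 with 1 library left out. Lower nephron genes (9) were 34, 5 and 7 to 17 in the same order, and 14 without old replicates 2 and 3. Higher vessel and stroma genes (9) were 17 by adjusted p alone and 5 to 12 with 1 library left out. Lower ones (0) were 2 by adjusted p alone, 0 to 1 with 1 library left out (1 without young replicate 1), and 1 with the length and GC trend, with that trend and old replicate 2 left out, and without old replicates 2 and 3. Replicate numbers did not pair the libraries (correlations of same-numbered deviations -0.28, 0.28, 0.055 and -0.18, and 2 of 4 numbers matched best with their own). With the replicate block, there were 656 genes higher in old kidney, 51 genes lower in old kidney and 2 nephron genes higher. Peaks in all old and no young libraries among higher genes (20) were 13 with a −log10 q of at least 5, 34 with equal peak numbers and 24 to 43 with 1 ATAC library left out. The shares of all genes were 0.222%, 0.368% and 0.257% to 0.499%. The opposite pattern was 4 among higher genes (2) with an overlap of at least 100 bases and 2 to 7 with 1 library left out. The shares of all genes were 0.319% and 0.486% to 0.694%. Among lower genes (1) it was 0 with the q limit (0.388% of all genes), 2 with equal peak numbers (0.18%) and 1 to 3 with 1 library left out. Of 80 named genes, 15 lost and 5 gained a call in some of the 18 settings, and 60 did neither wherever they were tested. F2, Glycam1, Itih3, Klrd1, Lep and Mmp7 were not tested in every setting. The causes were not tested. Genes under the count filter, 43 of them immune, were not tested.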

Other observations

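The genes in this section were chosen after their values were seen. Among MHC class I genes, which present peptides from inside nearly every cell, 3 abundant ones are given. B2m, the shared light chain, was at 407, 369, 438 and 477 CPM in young and 879, 839.5, 1026 and 1198 CPM in old kidney (edgeR log2 fold change 1.22, adjusted p 0.00114). H2-K1 and H2-D1, classical heavy chains with close paralogs, had log2 fold changes of 1.33 and 1.25 (adjusted p 0.000446 and 0.00161).

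Hdc, which makes histamine from histidine, rose from 34.4, 38.2, 109 and 58.5 CPM to 1283, 730, 346 and 496 CPM (log2 fold change 3.57, adjusted p 0.00212), with no overlap and a wide spread in both groups. Igf2, a fetal growth factor whose exons overlap Igf2os, rose by 3.80 on the log2 scale (adjusted p 0.000655). Akr1c14, a steroid dehydrogenase gene, fell by 2.31 (adjusted p 0.0103). Of the AP-1 genes, Atf3 rose by 1.99 (adjusted p 0.00417), Batf by 2.21 (adjusted p 0.0158) and Junb, whose exons overlap Prdx2, by 1.16 (adjusted p 0.00231), while Fos and Jun had log2 fold changes of 1.59 and 0.42 with adjusted p of 0.0605 and 0.0511.

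Some genes were close to all or nothing between the ages. Prg2, the major basic protein of eosinophils, had 0 counts in young and 319 in old kidney, at least 67.4-fold higher with 3 counts over the young group as the limit. Fcrl5, a receptor of B lineage cells, had 1 count in young and 311 in old kidney. Csprs had 1 and 250 counts, a ratio of 158.5 after scaling (95% exact interval 28.2 to 6286, counting error only). In the other direction, the pseudogene Gm6300 was at 2.88, 21.9, 60.3 and 18.1 CPM in young and 0.152, 0, 0.0473 and 0.0864 CPM in old kidney (adjusted p 0.00159).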
